A study of Homo sapiens with 6 samples.

Results

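The genes examined were the 39 protein-coding HOX genes of the human genome, found by their symbols in the GENCODE annotation of build GRCh38. They were 39 of 19864 protein-coding genes on chromosomes 1 to 22 and X, with 11 in the HOXA cluster, 10 in HOXB, 9 in HOXC and 9 in HOXD. The measurements were lists of dREG peaks. dREG is a classifier that takes the bidirectional pattern of nascent transcription and marks candidate active promoters and enhancers. A peak within 500 bp of any transcript start annotated for a gene is called its start peak.

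The peaks came from precision run-on sequencing (PRO-seq), in which engaged RNA polymerases of permeabilised cells add biotin-labelled nucleotides to the RNA they are making. All libraries were from K562, an established human leukaemia line kept without treatment, in 3 groups of 2 biological replicates taken at least 3 passages apart. PRO-seq 1M used the published protocol, with 3 affinity purifications, on a nominal 1M permeabilised cells. qPRO-seq 1M used a quicker protocol with 1 purification on the same input, and qPRO-seq 250k used it on 250k cells. The 1M libraries were amplified for 11 PCR cycles and the 250k libraries for 14, and all adapters carried random molecular identifiers of 6 nt. Each group had 1 peak list for both of its replicates, so replicates gave no spread and groups were not tested against each other.

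HOX genes encode homeodomain transcription factors that give cells their position along the body axis. They lie in clusters whose order on the chromosome follows the order of their expression, from anterior genes with low numbers to posterior genes with high numbers, and genes with the same number in different clusters are paralogs. Polycomb complexes keep the clusters silent and the MLL complexes keep them active, and in blood HOX genes with the cofactors PBX and MEIS support immature cells and many leukaemias.

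On chromosomes 1 to 22 and X there were 24707 peaks in PRO-seq 1M, 38177 in qPRO-seq 1M and 15562 in qPRO-seq 250k. All values given for the 3 lists follow this order. The lists hold no read counts, so the depth behind them is unknown and a longer list and a deeper library cannot be told apart. The labels call the line lymphoblastoid. Of 11 erythroid and megakaryocyte marker genes, 11, 11 and 10 had a start peak in the 3 lists, against 3, 3 and 2 of 10 lymphoid markers and 2, 2 and 1 of 5 myeloid markers. These shares were 100, 100 and 90.9%, then 30.0, 30.0 and 20.0%, and last 40.0, 40.0 and 20.0%, beside 52.9, 54.5 and 44.0% of all protein-coding genes. A missing peak does not tell a silent start from one whose signal was too low for the authors' peak calling.

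5 promoter windows show where the peaks lay and where they did not. Each is the RefSeq sequence on GRCh38.p14 from 250 bases before to 50 bases after a start, read on the gene's strand. Capitals mark matches to the motifs described with the promoter sequences further on, and a match on the other strand appears as its reverse complement. The HOXD10 window, at chr2:176116528-176116827 on the plus strand, was the only one of 27 HOX promoter entries that a peak of any list overlapped, and it did so in qPRO-seq 1M. The entries cover only 20 of the 39 HOX genes, with 1 entry in HOXB and 2 in HOXC. HOXB6, HOXB7, HOXB9, HOXC9 and HOXC10 have no entry, and each had a peak within 500 bp of its representative start in at least 1 list.
HOXD10: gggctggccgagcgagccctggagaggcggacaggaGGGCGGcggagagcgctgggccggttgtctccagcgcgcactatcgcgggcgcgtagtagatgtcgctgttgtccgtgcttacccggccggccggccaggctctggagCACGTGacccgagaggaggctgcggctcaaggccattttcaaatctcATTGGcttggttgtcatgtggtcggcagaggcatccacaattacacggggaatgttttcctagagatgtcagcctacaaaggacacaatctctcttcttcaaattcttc
The HOXA3 window at chr7:27113793-27114092 on the minus strand lies next to the single peak of the HOXA cluster, 123 bp from it in PRO-seq 1M and 153 bp in qPRO-seq 1M.
HOXA3: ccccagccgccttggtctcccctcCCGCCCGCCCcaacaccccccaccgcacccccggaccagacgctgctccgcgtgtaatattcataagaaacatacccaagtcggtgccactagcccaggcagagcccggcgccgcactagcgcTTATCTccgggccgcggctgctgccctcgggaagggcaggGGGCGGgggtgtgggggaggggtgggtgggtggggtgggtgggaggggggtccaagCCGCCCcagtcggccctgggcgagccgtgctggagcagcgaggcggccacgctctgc
HOXC4 and HOXC5 share an upstream start, and their common window at chr12:54016638-54016937 on the plus strand stood 724, 754 and 694 bp from a peak in the 3 lists.
HOXC4 and HOXC5: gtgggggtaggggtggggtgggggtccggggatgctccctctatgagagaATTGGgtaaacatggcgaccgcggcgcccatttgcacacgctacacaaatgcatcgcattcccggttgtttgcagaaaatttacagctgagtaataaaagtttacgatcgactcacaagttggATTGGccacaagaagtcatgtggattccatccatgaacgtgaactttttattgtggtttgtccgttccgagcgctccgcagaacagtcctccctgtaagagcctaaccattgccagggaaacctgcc
HOXA9, whose window is at chr7:27165488-27165787 on the minus strand, is shown as a member of the same cluster as HOXA3 with no peak nearer than 51818 bp in any list.
HOXA9: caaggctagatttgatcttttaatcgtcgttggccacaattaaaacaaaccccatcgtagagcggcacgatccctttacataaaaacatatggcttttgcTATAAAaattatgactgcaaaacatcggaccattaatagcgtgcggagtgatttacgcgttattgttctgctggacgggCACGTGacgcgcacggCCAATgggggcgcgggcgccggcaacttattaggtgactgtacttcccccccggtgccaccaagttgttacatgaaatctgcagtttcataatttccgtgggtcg
The noncoding gene LINC02086 of the HOXB cluster is shown because peaks of all 3 lists overlapped its window at chr17:48646509-48646808 on the plus strand, which held none of the motifs.
LINC02086: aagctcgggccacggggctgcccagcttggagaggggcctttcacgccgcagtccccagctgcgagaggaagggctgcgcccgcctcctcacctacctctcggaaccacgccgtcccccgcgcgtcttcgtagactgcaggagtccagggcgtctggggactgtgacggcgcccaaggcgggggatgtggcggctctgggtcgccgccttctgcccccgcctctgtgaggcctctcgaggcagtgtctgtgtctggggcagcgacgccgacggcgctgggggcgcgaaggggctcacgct

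Few HOX genes had a start peak in K562. In PRO-seq 1M, 7 of the 39 genes had one (17.9%, Wilson 95% interval 8.98 to 32.7%), against 52.9% of all protein-coding genes. In qPRO-seq 1M there were 9 (23.1%, 12.6 to 38.3%) against 54.5%. In qPRO-seq 250k there were 5 (12.8%, 5.60 to 26.7%) against 44.0%. The HOX share was below the share over all coding genes in each list. The intervals cover counting error alone, and neighbouring HOX genes share peaks and transcripts, so their counts are not independent.

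A start peak in all 3 lists was found for 4 genes (HOXB3, HOXB9, HOXC6 and HOXC9), or 10.3% of the HOX genes against 43.1% of all coding genes. 11 had one in at least 1 list, or 28.2% against 56.5%. Of the other 7, HOXA3 had one in both 1M lists and HOXB6 in both qPRO-seq lists. HOXB2, HOXB7 and HOXD10 had one in qPRO-seq 1M alone, and HOXC10 and HOXD8 in PRO-seq 1M alone. The remaining 28 genes had none. Among the members with a start peak, HOXA3 lay 175 and 205 bp from its peak and HOXB3 331 bp from its peak in PRO-seq 1M. Just outside the limit of 500 bp were HOXC4, at 730, 760 and 700 bp in the 3 lists, HOXB6, at 912 bp in PRO-seq 1M, and HOXB2, at 1006 bp in the same list.

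**Figure D1:**
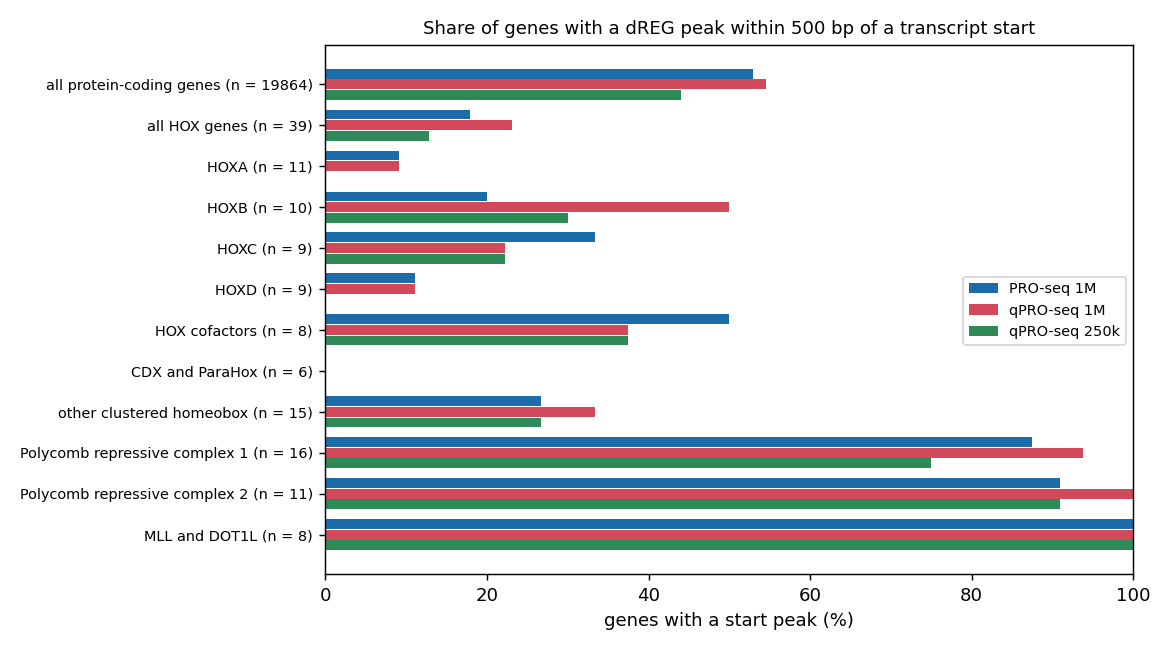
Share of genes (%) with a dREG peak within 500 bp of a transcript start, for all protein-coding genes, the HOX genes, each HOX cluster and lists of related genes, with 1 bar per peak list and no bar where the share is 0. The HOX genes stood at 17.9, 23.1 and 12.8% in the 3 lists, from top bar to bottom bar, below the 52.9, 54.5 and 44.0% of all coding genes.

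The counts depended on how starts and peaks were chosen. With 1 representative transcript per gene they were 4, 5 and 3 of 39 (47.8, 49.0 and 39.4% of all coding genes), and with the lower-scored peaks of each list left out, up to its median, they were 2, 3 and 1 (42.9, 45.9 and 30.8%). With each list reduced to its 15562 top-scored peaks, qPRO-seq 1M kept 2 HOX genes with a start peak (42.4% of all coding genes) and PRO-seq 1M 5 (47.0%).

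The count of genes with a start peak is given for each cluster beside the 52.9, 54.5 and 44.0% of all coding genes. In HOXA it was 1 of 11 genes in PRO-seq 1M, 1 in qPRO-seq 1M and 0 in qPRO-seq 250k. In HOXB it was 2, 5 and 3 of 10, and in HOXC 3, 2 and 2 of 9. In HOXD it was 1, 1 and 0 of 9, and the HOXD gene was a different one in the 2 lists. Over at least 1 list, HOXB had 5 of 10, HOXC 3 of 9, HOXD 2 of 9 and HOXA 1 of 11. The 5 of 10 HOXB genes in qPRO-seq 1M (50.0%, Wilson 95% interval 23.7 to 76.3%) were near the 54.5% of all coding genes. Genes of a cluster are neighbours, and no test of the difference between clusters was made.

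HOXA was nearly empty of peaks. The cluster spans 107 kb at chr7:27092993-27200106, with its genes on the minus strand. Its 1 peak was at chr7:27113391-27113670 in PRO-seq 1M and chr7:27113371-27113640 in qPRO-seq 1M, and qPRO-seq 250k had none. It lay by a start of HOXA3 (27113845) that is not the gene's representative start (27127020), and within 500 bp of a start of the antisense RNA HOXA-AS2. Its score was at percentile 41.1 of the PRO-seq 1M list and 51.0 of the qPRO-seq 1M list, where the percentile is the share of peaks in the same list with a score at or below it. From this peak to the 5′ end of HOXA13 there were 86.4 kb without a peak in PRO-seq 1M and 86.5 kb in qPRO-seq 1M. That stretch holds HOXA9 and HOXA10, which many acute myeloid leukaemias express highly, and HOXA11 and HOXA13, which pattern limbs and the urogenital tract.

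HOXB had the most members with a start peak in at least 1 list, led by HOXB9. The cluster spans 201 kb at chr17:48528526-48729178 on the minus strand, and HOXB9, a posterior gene of the trunk, starts at 48626356. That start lay inside a peak in PRO-seq 1M, 5 bp from one in qPRO-seq 1M and again inside one in qPRO-seq 250k. The peaks had score percentiles of 74.6, 73.9 and 73.2, the highest of any HOX start peak in each list. A lower peak lay beside it in both 1M lists, at percentile 36.3 in PRO-seq 1M and 39.8 in qPRO-seq 1M. HOXB9 was thus the one HOX gene whose start peak stood above the middle of all 3 lists.

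HOXB3 counted in all 3 lists, but by different starts. In PRO-seq 1M its peak, at chr17:48575881-48576250, was 331 bp from the start of a transcript annotated as a retained intron, at percentile 3.78. In the qPRO-seq lists its peaks lay by the far upstream start at 48604912, which is within the HOXB6 promoter region. These were 2 peaks in each list, at percentiles 39.9 and 2.71 in qPRO-seq 1M and at 13.7 and 44.8 in qPRO-seq 250k, and HOXB6 shared both. The representative start of HOXB6 (48604992) had a peak in both qPRO-seq lists, and that of HOXB3 (48553922) had none in any list. HOXB6 is expressed in immature haematopoietic and erythroid cells, and HOXB3 acts in hindbrain and blood progenitors.

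HOXB7 and HOXB2 had start peaks in qPRO-seq 1M alone. The HOXB7 peak, at chr17:48610881-48611510, held the representative start (48611020) at percentile 22.2. The HOXB2 peak, at chr17:48543461-48543960, had percentile 31.6 and also held a start of the antisense RNA HOXB-AS1. In PRO-seq 1M a peak at chr17:48541381-48542140 (percentile 21.4) lay 1006 bp from the nearest HOXB2 start, inside the gene. Both genes are thus calls of 1 list, below the middle of its scores. The HOXB2 peak has a deposited p of exactly 0, as have 21.1% of the peaks of that list.

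HOXC6 and HOXC9 shared the peaks that made them members of all 3 lists. HOXC spans 117 kb at chr12:53938765-54056030 on the plus strand. A region at chr12:53994581-53995820 held 3 peaks in each list, next to starts of both genes, and its top percentiles were 49.5, 49.7 and 39.5. HOXC9 also had a peak by its representative start (54000119) in each list, at percentiles 54.8, 61.8 and 27.5. The representative start of HOXC6 (54028358) had no peak in any list. HOXC10 had 1 start peak, in PRO-seq 1M, at chr12:53984851-53985220 and percentile 43.8, which it shared with the antisense RNA HOXC-AS3. HOXC6, HOXC9 and HOXC10 belong to the thoracic and lumbar part of the cluster.

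A strong HOXC region lay just beyond the limit for a start peak. At chr12:54017631-54018940, inside introns of annotated genes, all 3 lists had a peak, with top percentiles of 66.7, 53.7 and 76.3, the highest inside HOXC in the first and the last list. It stood 730, 760 and 700 bp from the nearest start of HOXC4, a gene active in lymphoid and erythroid cells. This is the upstream start whose window is printed with HOXC5. Nearer still, at 551, 581 and 521 bp, was the start (54017110) of a separate annotation entry that is also named HOXC5. That entry is not protein-coding and is counted with the noncoding genes further on. With a window of 1000 bp, the HOX genes with a start peak numbered 9, 10 and 6 of 39 in the 3 lists, against 53.7, 55.5 and 44.9% of all coding genes.

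HOXD had no peak that 2 lists shared inside the cluster. Over its 98.0 kb at chr2:176092891-176190907, on the plus strand, PRO-seq 1M had 1 peak, qPRO-seq 1M 5 and qPRO-seq 250k none. The PRO-seq 1M peak, at chr2:176130061-176130490 and percentile 10.3, held a start of HOXD8. The HOXD10 peak of qPRO-seq 1M, at chr2:176116571-176116820 and percentile 14.4, held the representative start (176116579) and lies inside the window printed for this gene. Its deposited p is also exactly 0. The other 4 qPRO-seq 1M peaks were away from starts, and the highest, at chr2:176097591-176098010 between HOXD13 and HOXD12, had percentile 64.7. HOXD13 and HOXD12, which pattern the digits, had no start peak.

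**Figure D2:**
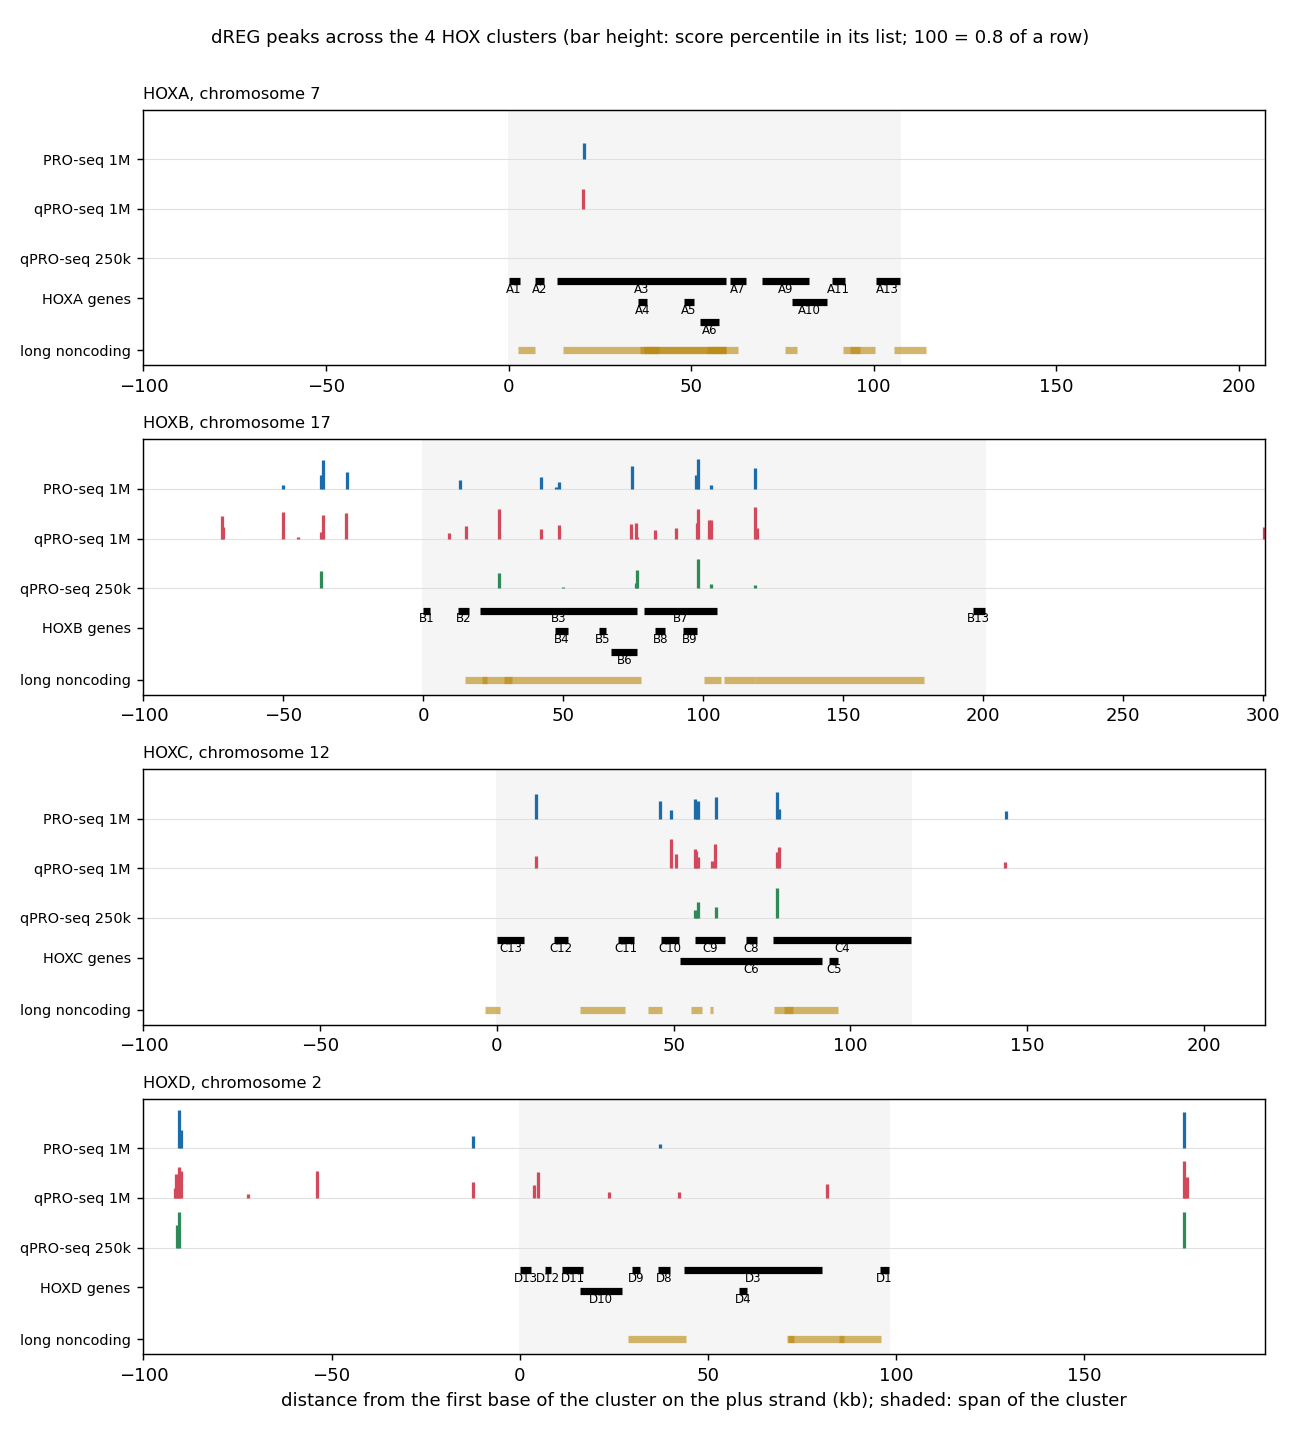
Maps of the 4 clusters with 100 kb on each side, where the horizontal axis is the distance (kb) from the first base of the cluster, coloured bars are peaks of the 3 lists with their score percentile as height, black bars are HOX genes, brown bars are long noncoding genes and shading marks the cluster. HOXA has 1 peak in each 1M list, while HOXB has 13, 24 and 8 peaks in the 3 lists, from top to bottom.

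**Figure D3:**
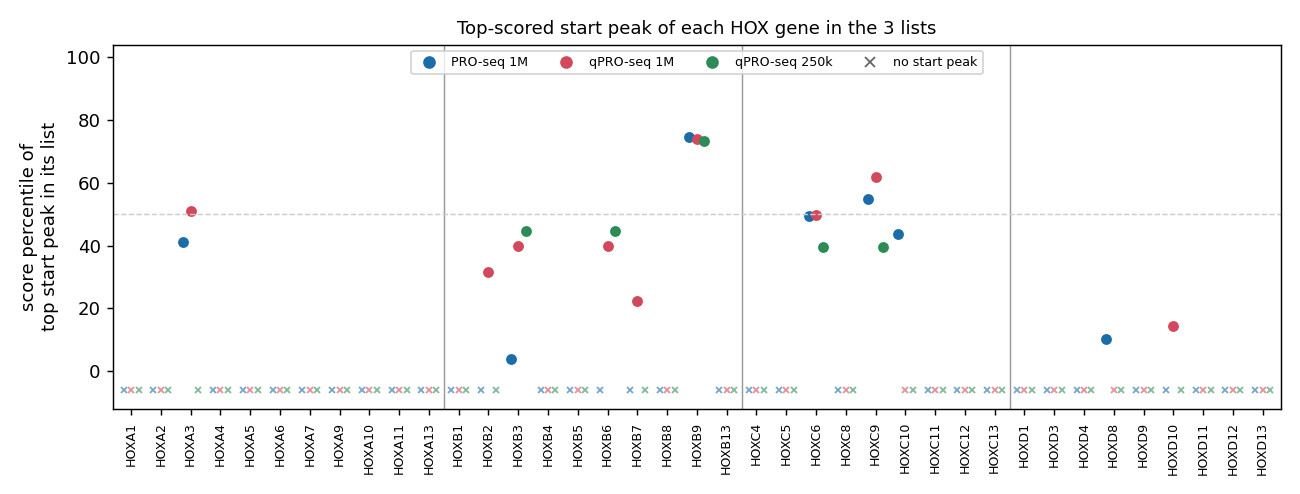
Score percentile of the top start peak of each of the 39 HOX genes within its own list, one colour per list, with crosses for genes without a start peak and a dashed line at 50. HOXB9 is highest in each list, at 74.6, 73.9 and 73.2, and no point lies above 75.

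The start peaks of HOX genes ranked low in their lists. The HOX genes had 10, 13 and 7 distinct start peaks in the 3 lists, and 2, 4 and 5 of these served 2 or more HOX genes. Their median percentiles were 42.5, 39.8 and 27.5, against 60.0, 61.1 and 56.5 over the start peaks of all coding genes. None lay above percentile 75, where 33.0, 34.6 and 30.0% of all coding start peaks lay. Percentiles place a peak within its own list, and lists of different length do not give a change between groups.

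Genes without a start peak were at very different distances from one. The 10 HOXA genes without a start peak in the 1M lists lay between 10580 bp (HOXA2) and 81930 bp (HOXA13) from a PRO-seq 1M peak, with a median of 38.2 kb in both lists. In qPRO-seq 250k all 11 HOXA genes lay between 231 and 330.5 kb from the nearest peak. For HOXB the medians were 5.87, 6.31 and 10.3 kb, and for HOXC 9.54, 8.23 and 14.6 kb. For HOXD they were 16.3, 5.29 and 105.0 kb. Over all coding genes without a start peak the medians were 54.6, 36.0 and 64.7 kb. HOXB4, which expands haematopoietic stem cells, lay 3091, 3081 and 1451 bp from a peak in the 3 lists. HOXB13, a prostate gene set apart from the rest of HOXB, lay 82028, 81228 and 82138 bp away.

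**Figure D4:**
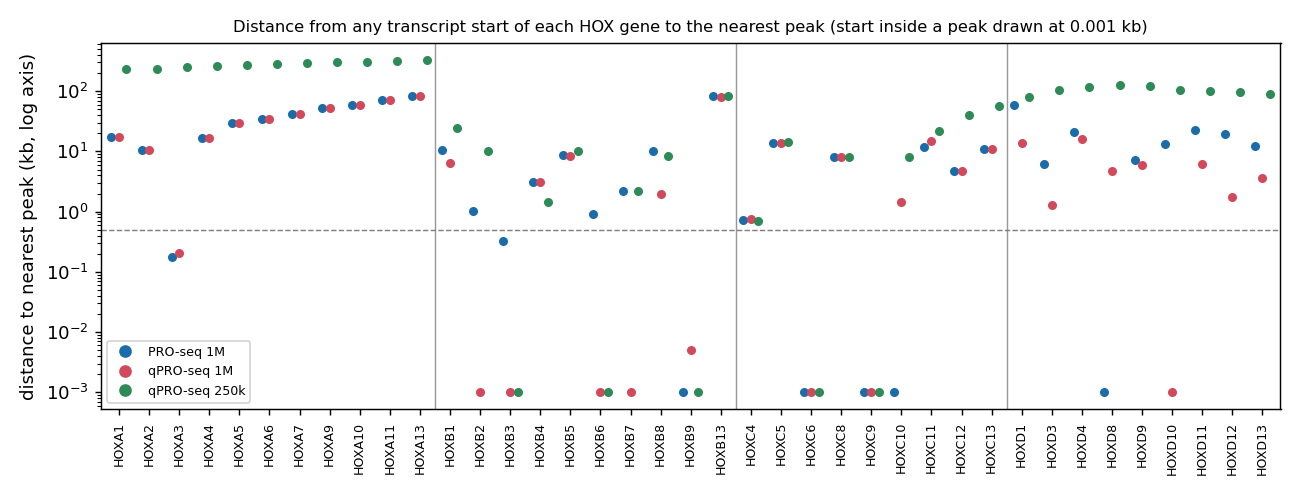
Distance (kb, log axis) from any transcript start of each HOX gene to the nearest peak of each list, with starts inside a peak drawn at 0.001 kb and a dashed line at the limit of 0.5 kb. The HOXA genes rise with distance from the HOXA3 peak in the 1M lists and lie at 231 kb or more in qPRO-seq 250k.

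Start peaks fell in 7 of the 13 paralog groups. The groups hold 2 to 4 genes each, and no test of their pattern was made. Over at least 1 list, 28.2% of the HOX genes and 56.5% of all coding genes had a start peak. At least 1 list had a start peak for 1 of 2 genes of group 2, 2 of 3 of group 3, 2 of 3 of group 6, 1 of 2 of group 7, 1 of 3 of group 8, 2 of 4 of group 9 and 2 of 3 of group 10. No gene of groups 1, 4, 5, 11, 12 or 13 had one. For group 4 this depends on the limit of 500 bp, since HOXC4 lay 730, 760 and 700 bp from a peak in the 3 lists. The RefSeq window of HOXC5, in group 5, is the same as that of HOXC4, at 724, 754 and 694 bp. These 6 groups hold the most anterior and the most posterior genes of each cluster, and also genes between these ends. Among the latter are HOXA4, HOXA5, HOXB4, HOXB5, HOXC5 and HOXD4.

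The density of peaks separated HOXB and HOXC from HOXA. Within 100 kb of each cluster, flanks included, HOXB had 13, 24 and 8 peaks in the 3 lists and HOXC had 10, 11 and 5. HOXD had 5, 16 and 3 and HOXA 1, 1 and 0. Per 100 kb this was 3.24, 5.99 and 2.00 for HOXB, 3.15, 3.47 and 1.58 for HOXC, 1.68, 5.37 and 1.01 for HOXD and 0.326, 0.326 and 0 for HOXA. The median over all coding genes, each taken with 100 kb on both sides, was 1.75, 2.55 and 1.00. HOXB and HOXC thus stood above that median in each list and HOXA below it. The share of coding genes with a lower density than HOXA was 17.7 and 12.9% in the 1M lists. In the last list HOXA had a density of 0, so no gene could lie lower. Genes that tied with HOXA at 0 were not counted, so no rank of HOXA is given for that list.

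By count, most HOXD peaks were in its flanks, while most HOXC peaks were in the cluster. Inside the spans alone there were 9, 16 and 7 peaks for HOXB, 9, 10 and 5 for HOXC, 1, 5 and 0 for HOXD and 1, 1 and 0 for HOXA. The HOXD flanks are longer than its span, which is 98.0 of the 298 kb counted. In qPRO-seq 1M the span held 5 of the 16 HOXD peaks, so that list shows no clear excess in the flanks for their length. It held 1 of 5 in PRO-seq 1M and 0 of 3 in qPRO-seq 250k, too few to compare. The 2 strongest flanking regions of HOXD were at the starts of its neighbours. LNPK, which encodes an endoplasmic reticulum protein, had percentiles of 96.9, 77.7 and 90.0, and MTX2, of the mitochondrial outer membrane, had 90.9, 93.3 and 89.2. Inside HOXB, peaks stopped at the LINC02086 start region, and 82.0, 81.2 and 82.1 kb up to HOXB13 held none.

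The peaks of the 3 lists joined into 33 regions inside the 4 clusters, of which 6 were in all 3 lists. These 6 were 3 in HOXB and 3 in HOXC. They were the HOXB9 start, an intronic region at chr17:48631011-48631460, the start region of LINC02086, the shared HOXC6 and HOXC9 starts, the HOXC9 representative start and the region by HOXC4. Another 6 regions were in both 1M lists and 3 in both qPRO-seq lists. There were 13 in qPRO-seq 1M alone, 4 in PRO-seq 1M alone and 1, at percentile 2.39, in qPRO-seq 250k alone. Joined regions over the whole lists are not given here, and qPRO-seq 1M is the longest list. These counts therefore do not tell a trait of the clusters from the length of the lists.

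For each pair of lists, taken in both directions, the share of cluster peaks overlapped by the other list was below the share over the whole list, with wide intervals. Of the 20 PRO-seq 1M peaks inside the clusters, qPRO-seq 1M overlapped 16 (80.0%, Wilson 95% interval 58.4 to 91.9%), against 90.6% over the whole list. qPRO-seq 250k overlapped 9 of them (45.0%, 25.8 to 65.8%), against 60.2%. Of the 32 qPRO-seq 1M peaks, PRO-seq 1M overlapped 16 (50.0%, 33.6 to 66.4%) against 63.3%, and qPRO-seq 250k 13 (40.6%, 25.5 to 57.7%) against 44.1%. Of the 12 qPRO-seq 250k peaks, PRO-seq 1M overlapped 8 (66.7%, 39.1 to 86.2%) against 91.2%, and qPRO-seq 1M 11 (91.7%, 64.6 to 98.5%) against 96.6%. The whole-list share lay inside the interval for 5 of the 6 pairs and above it for the 8 of 12, and no test was made. With all lists at the same length, PRO-seq 1M cluster peaks met qPRO-seq 1M in 30.0% of cases and qPRO-seq 250k peaks met it in 33.3%, while qPRO-seq 1M peaks met the 250k list in 66.7%. The shares that involve qPRO-seq 1M thus moved with the length of the lists. Whole-list shares at that same length are not given here. The 30.0, 33.3 and 66.7% can therefore not be set against the whole-list shares printed before them, which are for the full lists.

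Start peaks of noncoding genes lay in HOXA, HOXB and HOXC, and HOXD, with only 5 long noncoding genes, had none. The annotation has 57 genes that are not protein-coding and overlap a cluster, among them 29 long noncoding and 8 microRNA genes. Of the 57, 7, 7 and 4 had a start peak in the 3 lists (12.3, 12.3 and 7.02%), against 8.16, 9.64 and 6.45% of all such genes of the genome. All of these were long noncoding, so the counts were also 7, 7 and 4 of 29 (24.1, 24.1 and 13.8%), against 14.8, 16.9 and 11.4% of all long noncoding genes. By cluster they were 1, 1 and 0 of 10 in HOXA, 3, 4 and 2 of 7 in HOXB, 3, 2 and 2 of 7 in HOXC and 0 of 5 in HOXD in each list. Beside 14.8, 16.9 and 11.4% of all long noncoding genes, the counts of HOXA and HOXD are not read as particular to these clusters.

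8 noncoding genes had a start peak in at least 1 list, and 5 of them shared it with a HOX gene. HOXC-AS1 shared the HOXC9 peak and HOXC-AS2 the HOXC6 and HOXC9 peaks in all 3 lists. HOXA-AS2 shared the HOXA3 peak in both 1M lists, HOXC-AS3 the HOXC10 peak in PRO-seq 1M and HOXB-AS1 the HOXB2 peak in qPRO-seq 1M. The strand of transcription is not in the lists, so a peak between an antisense pair cannot be given to either gene.

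The other 3 stood by themselves, all in HOXB. LINC02086 starts at 48646923 on the plus strand and AC103702.2 at 48647023 on the minus strand, and 1 peak in each list held both starts, at percentiles 53.5, 80.5 and 8.91. HOXB-AS3 had a peak at one of its starts (48602491) in both 1M lists, at percentiles 57.2 and 35.9. In qPRO-seq 1M the LINC02086 peak was the highest of the whole HOXB cluster. Long noncoding genes with no start peak in any list included HOTAIR, which lies in HOXC and binds Polycomb, HOTTIP and HOTAIRM1 at the ends of HOXA, and HAGLR in HOXD, all named for their known roles after their values were seen.

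None of the 8 microRNA genes had a start peak within 500 bp of its hairpin, which is cut from a longer transcript. The share over all microRNA genes is not given here. Over all genes that are not protein-coding it was 8.16, 9.64 and 6.45%, so a count of none among 8 is not read as particular to these genes. The miR-196 genes lie in 3 of the clusters, and their mature 5p strands share the seed, bases 2 to 8, printed in capitals from RefSeq on GRCh38.p14. miR-10a, from HOXB, has another seed.
hsa-miR-196a-5p: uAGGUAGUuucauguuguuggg
hsa-miR-196b-5p: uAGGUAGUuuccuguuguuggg
hsa-miR-10a-5p: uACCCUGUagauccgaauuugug
miR-196 targets HOXB8 and other HOX messages, and miR-10 lies next to the paralog group 4 genes. MIR196A1, near HOXB9, was 1199, 1099 and 1169 bp from a peak in the 3 lists, the one at chr17:48631011-48631460 that all lists had (percentiles 8.95, 47.1 and 10.0). MIR196A2, near HOXC10, was 2853, 2148 and 2893 bp away, and MIR10A, near HOXB4, 2927, 2917 and 1287 bp. MIR196B, in the empty part of HOXA, was 55893, 55923 and 304463 bp away, and MIR10B, in HOXD, 19813, 14983 and 118788 bp. MIR615, MIR3185 and MIR7704 were between 14103 and 80248 bp away. MIR196A1 was the nearest to a peak in each list.

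CCAAT and CACGTG, the letters of the CCAAT box and of an E-box, were in a larger share of HOX promoters than of all promoters. RefSeq promoter windows were matched for 20 of the 39 genes (27 entries, 26 distinct), 16 of them in HOXA, 8 in HOXD, 2 in HOXC and 1 in HOXB. CCAAT was in 18 of 27 entries (66.7%), against 34.6% of 34961 promoters of the same length, with both strands searched. Unlike the HOX entries, these 34961 include promoters of noncoding genes, here and for all motifs, GC and CpG values below. CACGTG, which reads the same on both strands, was in 9 (33.3%) against 7.27%. All 3 of HOXA4, HOXA7 and HOXA9 held both, as did HOXD1, HOXD3, HOXD10 and HOXD13, and the HOXD10 window with its peak did not stand apart in this from the HOXA9 window without one. HOXA3 has 7 of the entries and HOXC4 and HOXC5 share 1 window, so the entries are not independent.

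The other motifs were in at most 13 of the 27 entries. GGGCGG was in 13 (48.1% against 45.0%) and the MEIS motif TGACAG in 4 (14.8% against 15.8%), both near the share of all promoters. TATAAA was in 5 (18.5% against 11.5%). AGATAA, which erythroid factors of the GATA family bind, was in 2 (7.41% against 10.3%) and the YY1 motif GCCATNTTG in 1 (3.70% against 2.92%). The ETS motif CCGGAAG was in 0 against 10.3%. TGATTGAT, a site for HOX with PBX, was in 2 (7.41% against 0.486%), HOXA2 and HOXD11, and its variant TGATTTAT in 0 against 0.850%. The CTCF motif was in 0 against 0.355%. The median GC content was 58.0% in HOX entries and 58.7% in all, and the ratio of observed to expected CpG was 0.849 against 0.580. These matches describe the letters of the windows and do not show binding.

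Genes of the MLL and Polycomb complexes had start peaks at larger shares than all coding genes (52.9, 54.5 and 44.0%), while those of HOX cofactors were near these shares. Of 8 cofactor genes, 4, 3 and 3 had a start peak in the 3 lists (50.0, 37.5 and 37.5%). MEIS1, the usual partner of HOXA9 in leukaemia, had one in each list (percentiles 69.9, 75.2 and 37.4), as had MEIS2 (73.5, 78.0 and 54.3), while PBX2 and PBX3 had none. All 8 genes of the MLL and DOT1L side, which keeps HOX genes active, had a start peak in each list (100%). KMT2A itself stood at 69.5, 47.0 and 66.7.

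Of 11 genes of Polycomb repressive complex 2, 10, 11 and 10 had a start peak (90.9, 100 and 90.9%), and of 16 of Polycomb repressive complex 1, 14, 15 and 12 (87.5, 93.8 and 75%). EZH2, the methyltransferase of complex 2, had percentiles of 98.9, 97.7 and 99.4, above every HOX start peak. RNF2, a ubiquitin ligase of complex 1, had 94.9, 74.4 and 60.0, and RING1 had no start peak. Peaks outside chromosomes 1 to 22 and X were not counted. For RING1 and PBX2, both on chromosome 6, a peak on an alternate copy of their region would therefore be missed. None of the 6 CDX and ParaHox genes, which include the upstream activators CDX1, CDX2 and CDX4, had a start peak in any list. The MLL and Polycomb shares were thus above those of all coding genes in each list, and the HOX and CDX shares were below them. These lists are short, and no test was made.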

How the data were processed

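Nascent RNA of K562 cells was measured in 6 libraries, grouped by their titles. Per the labels, each group has 1 list of dREG peaks. The score and p-value of each peak are as deposited by the authors, as are its start, end and centre, and the p carries no statement of adjustment. Per the submitters' processing notes, fastp 0.20.0, Bowtie2 2.3.5.1, UMI-tools and deepTools 3.1.3 were used with build hg38 (GRCh38). The version and thresholds of dREG and the pooling of replicates are not given in the sources used here.

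Gene starts were from GENCODE release 29 on GRCh38. Genes and peaks outside chromosomes 1 to 22 and X were left out. A start peak lay within 500 bp of any annotated transcript start, clusters ran from the first to the last base of their HOX genes with flanks of 100 kb, and peaks overlapped when they shared at least 1 bp. Scores were used as percentiles within their own list. Shares have Wilson 95% intervals. The calculations used Python 3.11.15, SciPy 1.17.1, NumPy 2.4.6 and matplotlib 3.10.9, and the counting was tested on simulated data. All 39 genes were accounted for, with values for each member and each noncoding gene of the clusters with a start peak in any list, and of other lists the first genes in list order with and without one. The members and lists (cofactors, MLL and DOT1L, Polycomb, CDX and ParaHox, clustered homeobox, neighbours and cell type markers) were chosen with earlier results of these data known, and 1 cofactor is not reported here. The alternatives were other windows, flanks, starts, p and score limits, list sizes, merging and overlap rules.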

Additional observations from a re-analysis of the deposited data

How the results depend on the processing

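Of 201 values recomputed under alternatives, 132 stayed within 1.5 times the reported count (or, for shares, within their interval) and 69 did not. Counts and shares have no direction to reverse. Values are in the order PRO-seq 1M, then qPRO-seq 1M, then 250k unless a list is named, and where a filter left fewer peaks the lower count follows from its construction. In the other cases the cause was not tested. Windows of 1000 bp left each count of start peaks within 1.5 times the reported one, and windows of 200 bp moved HOXA to 0 in qPRO-seq 1M and HOXB to 1 in PRO-seq 1M.

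With the peaks scored below the median of a list left out, HOX genes with a start peak numbered 2, 3 and 1, HOXB genes 1, 1 and 1, and HOXC genes 1, 1 and 0. HOXA fell to 0 in PRO-seq 1M and HOXD to 0 in both 1M lists, and noncoding genes numbered 4, 4 and 0. Peaks within 100 kb numbered 0 for HOXA in PRO-seq 1M, 4, 7 and 1 for HOXB, 3, 3 and 1 for HOXC, and 2 and 7 for HOXD in the 1M lists.

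With 1 representative start per gene, HOX genes with a start peak numbered 4, 5 and 3, HOXA genes 0 in both 1M lists, HOXB genes 1 and 3 in the 1M lists, and HOXC genes 1 in both qPRO-seq lists. With a p of 0.01 or less, HOXB had 1 gene and HOXD 0 in PRO-seq 1M, and 2 noncoding genes, 4 HOXB peaks and 3 HOXC peaks were left in qPRO-seq 250k. A deposited p of exactly 0 was carried by 4852 of 24707, 8054 of 38177 and 1928 of 15562 peaks, of which 2231, 3838 and 1539 lay below percentile 50. Within 100 kb of the clusters these were 5, 11 and 0 peaks, 3, 10 and 0 of them below percentile 50, so the HOXB2 and HOXD10 peaks stayed under this limit despite low scores. What a p of 0 stands for is not given in the sources used here. For qPRO-seq 250k peaks, the share that overlapped qPRO-seq 1M was then 100%.

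With all lists cut to the 15562 top-scored peaks, qPRO-seq 1M had 2 HOX genes with a start peak, 0 in HOXA, 1 in HOXC and 3 noncoding genes. HOXB had 1 and HOXD 0 in each 1M list. Peaks within 100 kb were 0 for HOXA in qPRO-seq 1M, 5 and 5 for HOXB, 6 and 2 for HOXC, and 3 and 6 for HOXD in the 1M lists. Of the PRO-seq 1M peaks, 30.0% overlapped the quick protocol at 1M. Of the qPRO-seq 1M peaks 66.7% overlapped the 250k list, and of the 250k peaks 33.3% overlapped qPRO-seq 1M. With centres within 100 bp, 25.0% of qPRO-seq 1M peaks were matched in the 250k list.

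Merging peaks within 500 bp left 7 HOXC peaks in qPRO-seq 1M, 3 in qPRO-seq 250k and 10 HOXD peaks in qPRO-seq 1M. With flanks of 50 kb HOXD had 2, 6 and 0 peaks, and with no flank 1, 5 and 0. No paired analysis was possible because each group has 1 list and no values per replicate, and for the same reason no replicate could be left out. The lists hold no read counts, so how depth limits the calls is unknown.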

Other observations

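Another list held 15 homeobox genes, which lie in clusters or pairs except for the motor neuron gene MNX1. Of these 15, 4, 5 and 4 had a start peak in the 3 lists (PRO-seq 1M, then qPRO-seq 1M, then 250k). These were 26.7, 33.3 and 26.7%, against 52.9, 54.5 and 44.0% of all protein-coding genes. The neighbours DLX1 and DLX2, which pattern the forebrain, branchial arches and limbs, had one in each list. Their score percentiles were 78.0, 87.9 and 80.3 for DLX1 and 96.6, 96.6 and 94.2 for DLX2, above the top HOX start peak of each list. DLX3 and DLX5 had none.

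EVX1 and EVX2, the even-skipped homologs at the posterior ends of HOXA and HOXD, had no start peak in any list. Of the protein-coding genes that reach to within 100 kb of a cluster, SKAP2 beside HOXA had one in each list, at percentiles 81.9, 98.2 and 98.4. SMUG1 beside HOXC, a uracil glycosylase of base excision repair, had 84.2, 79.6 and 64.7. The start peaks of both lay farther than 100 kb from the cluster, so they are not among the peaks counted around HOXA and HOXC. None of the 4 neighbours of HOXB had one. No peak in the HOXB flanks lay within 500 bp of the start of a coding gene. The region at chr17:48478191-48478640, in both 1M lists, lay within 500 bp of the start of the noncoding RF00019. The qPRO-seq 1M peak at chr17:48828811-48829070 was 1918 bp from the nearest start, that of CALCOCO2.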
